A study of Mus musculus with 6 samples.

Results

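Imprinted genes can be expressed from the maternal or the paternal copy only, according to methylation marks set in the germ line. Several of them regulate growth, the Igf pathway and the state of stem cells. In the mouse they lie in clusters that mix protein-coding genes with long noncoding RNAs, such as the Igf2/H19 pair and the Dlk1-Dio3 domain, where the noncoding genes Meg3, Rian and Mirg are transcribed from the maternal copy and host many miRNAs and snoRNAs. CPEB1 is an RNA-binding protein that recognizes the cytoplasmic polyadenylation element (CPE) in the 3′ UTR of mRNAs and regulates their poly(A) tails and translation.

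The genes described here were 10 imprinted genes picked by symbol from the 55376 genes of the deposited tables, namely the noncoding H19, Meg3, Rian and Mirg and the protein-coding Igf2, Dlk1, Peg3, Grb10, Plagl1 and Mest. All 10 were found. The counts do not tell the maternal from the paternal copy, so the copy that was expressed was not measured. RIP-seq recovers the RNA that is pulled down with a protein by an antibody, and it was performed on freshly isolated satellite cells (fiSCs), the stem cells of skeletal muscle sorted as CD31-, CD45-, Sca1- and Vcam1+ from C57BL/6 male mice aged 3 months. The 6 libraries comprised 2 from the precipitate of an anti-CPEB1 antibody (CPEB1 IP), 2 from the precipitate of a control IgG antibody, and 2 from input RNA with no antibody. All groups share strain, age and sort, no library came from cells lacking CPEB1, and the fiSCs have left full quiescence during isolation. The libraries held from 1284716 (IgG) to 4941653 (CPEB1 IP) counts on genes, and genes took 39.1% to 39.5% of the library total used for FPKM in IgG against 69.5% to 79.8% in the other libraries. All 10 satellite cell markers were detected, with Pax7 at 39.8 and 46.0 FPKM in input. Every marker of the other cell types was also above 0 in each group. Among these types, 4 smooth muscle and pericyte markers had the largest summed FPKM in input, 179.3 and 224.2. Their sum was 34.1 and 34.4 in IgG and 85.5 and 89.9 in CPEB1 IP, and Acta2 led it in every library. The sums of immune, myofibre and Schwann markers were each at most 31.2 in input and 68.5 in CPEB1 IP. The summed FPKM of 5 endothelial markers was 12.4 to 15.9 in input, 41.8 to 45.3 in IgG and 98.0 to 113.0 in CPEB1 IP, mostly from Cldn5 in both precipitates, and that of 6 fibro-adipogenic and tenocyte markers was 169.4 to 169.8 in input, 38.8 to 47.1 in IgG and 88.6 to 89.5 in CPEB1 IP. The latter sum was led by Col3a1 (136.7 and 144.9 in input, 44.7 and 43.2 in CPEB1 IP), whereas Ly6a (5.59 and 4.40 in input, 14.7 and 15.9 in CPEB1 IP), Tnmd and Pdgfra of the same list were higher in CPEB1 IP than in input. The part of such cells in the values below was not tested. In such bulk libraries fewer cells of a type cannot be told apart from less RNA in each cell. In a precipitate neither can be told apart from a lower recovery of that RNA.

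Since CPEB1 reads the CPE, the annotated transcripts of the 10 genes were searched on the sense strand for 9 CPE motifs. These were TTTTAT and TTTTAAT, which are called canonical here, and the variants TTTTACT and TTTTCAT as well as TTTTAAAT, TTTTAACT, TTTTAAGT, TTTTAATT and TTTTAAAGT. The motif TTTTAATT contains a shorter one, TTTTAAT. A motif was present in a 3′ UTR of 4 of the 6 protein-coding genes, Igf2, Grb10, Plagl1 and Mest, and a canonical one in 2 of them, Igf2 and Grb10. Among all 21003 genes with an annotated 3′ UTR, 66.8% held a motif and 58.9% a canonical one. Among the 10885 of them tested in CPEB1 IP against IgG, these shares were 75.7% and 68.2%. The windows of 30 bases below, from GENCODE transcripts on GRCm38 (mm10), show the canonical motif of Igf2 and of Grb10 that lies nearest to the transcript end, both motifs of Plagl1, the pair nearest to the transcript end of Mest, and one motif each of the noncoding Meg3 and Rian, with the motif in capitals.
Igf2, chr7:142652026-142652055, minus strand: cttgatttttttTTTTATctctctctatcg
Grb10, chr11:11930863-11930892, minus strand: ttttcttttttcTTTTATtgtttgcttaaa
Plagl1, chr10:13129734-13129763, plus strand: gatgtctccattTTTTAAAGTgaatttaaa
Plagl1, chr10:13129767-13129796, plus strand: actgttcaatatTTTTCATgtgatgttgtt
Mest, chr6:30748348-30748377, plus strand: cattattgattaTTTTAAATtcgtttttta
Mest, chr6:30748361-30748390, plus strand: tttaaattcgttTTTTAAATtagaaatttc
Meg3, chr12:109571168-109571197, plus strand: cctagaataggtTTTTATttattggaaaag
Rian, chr12:109653929-109653958, plus strand: tgagtagtttacTTTTATaataaaaagtat

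The genes differed in how many motifs they held and where. The longest 3′ UTR of Igf2 (3050 bases) held 5 motifs, all canonical and between 1278 and 1502 bases from the transcript end. That of Grb10 (2955 bases) held 8, of which 6 were canonical, at 373 to 2348 bases from the end. Mest held 4 in 1296 bases, none canonical, and 3 of them lay within 150 bases of the end. Plagl1 held 2 in 2590 bases, none canonical, at least 1916 bases from the end. No motif was found in the 3′ UTRs of Dlk1 (up to 2976 bases) or Peg3 (up to 3614 bases). Of the noncoding genes, the longest transcript of Rian (8089 bases) held 22 motifs, or 2.72 per kilobase, that of Meg3 (14548 bases) held 10 and that of H19 (2286 bases) none. The longest transcript of Mirg (3822 bases) held none, while others of its transcripts did. Among the 421 noncoding genes tested in CPEB1 IP against IgG, 82.4% had a motif in some transcript, and among all 9859 noncoding genes 56.3% had one. A match describes these letters only and is not a binding site.

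Levels per length, as the authors' FPKM (fragments scaled by gene length and library total), were highest for Peg3 and Meg3 and lowest for Igf2 in every group. Peg3 encodes a zinc finger protein and is read from the paternal copy, and Igf2 encodes a growth factor. The FPKM of Peg3 in input was 79.4 and 71.4. Meg3 had 79.4 and 41.9, so that the ranges of both genes overlapped in input, and the 2 input libraries differed 2.05-fold for Meg3 after scaling of the counts. Mest, a putative hydrolase, had 34.7 and 46.4 FPKM in input and overlapped with the range of Meg3. Below these came Grb10 (29.7 and 29.8), Mirg (13.7 and 9.45), Plagl1 (8.26 and 9.24), Rian (6.87 and 7.32), H19 (3.53 and 5.68), Dlk1 (1.92 and 2.64) and Igf2 (0.456 and 1.01), with no overlap between neighbours in this order. H19 and Igf2 therefore rested on few reads, 40 and 58 counts for H19 and 12 and 24 for Igf2 in input. The order also depends on the gene length behind the FPKM. That length was 31981 bases for Rian and 7292 for Mirg, whose longest annotated transcripts have 8089 and 3822. Rian held more counts than Mest in input, 1011 and 972 against 630 and 760.

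In CPEB1 IP the order differed from that in input at several places, and so it did in IgG. Peg3 stood at 74.7 and 78.4 FPKM, Meg3 at 24.8 and 23.5, Grb10 at 19.8 and 17.2, Mest at 17.3 and 17.8 and Plagl1 at 13.04 and 14.03. The ranges of Grb10 and Mest overlapped. Mirg had 4.78 and 5.03, Rian 2.08 and 2.37, H19 1.77 and 2.17, Dlk1 1.59 and 1.37 and Igf2 0.381 and 0.295, and here Rian and H19 overlapped. Peg3 thus stood well above Meg3 in both CPEB1 IP libraries, whereas the pair stood closer to each other in IgG, at 33.3 and 33.5 for Peg3 and 29.7 and 30.9 for Meg3. Grb10 stood above Mest and Plagl1 above Mirg in IgG as well as in CPEB1 IP. The FPKM in IgG was 8.94 and 8.92 for Grb10 and 6.71 and 7.22 for Mest. It was 8.82 and 8.57 for Plagl1 and 6.16 and 5.05 for Mirg.

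**Figure D1:**
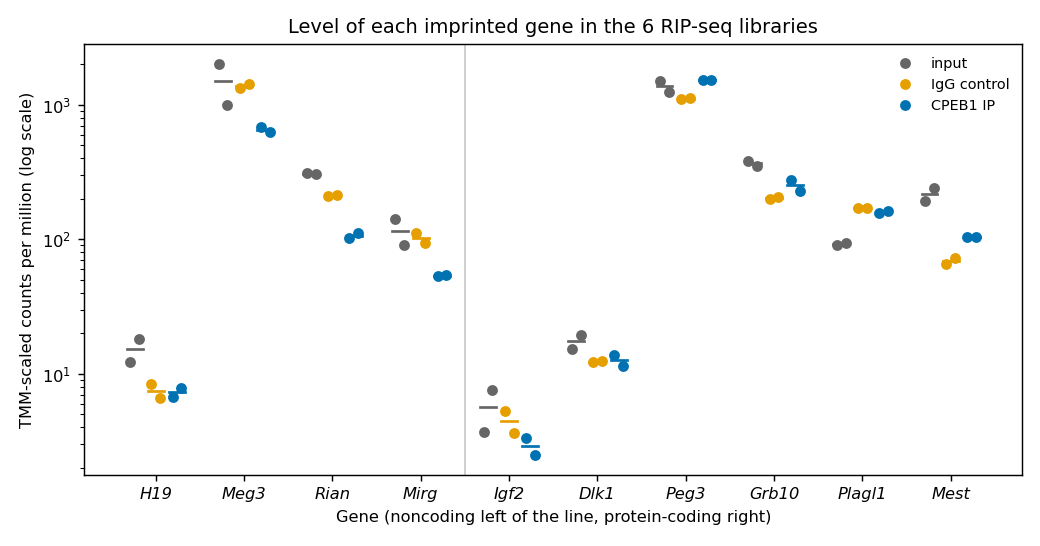
Level in TMM-scaled counts-per-million (CPM, log axis) of the 10 imprinted genes in each library, with a point for each of the 2 libraries of a group and a line at their mean. Without overlap of the 2 groups, CPEB1 IP lies below IgG for Meg3, Rian, Mirg, Plagl1 and Igf2 and above it for Peg3, Grb10 and Mest. Plagl1 and Grb10 were not called by the edgeR test, and Igf2, with few counts, was not tested. The share of all genes without overlap was not counted. The 2 input points of Meg3 stand apart at 2027 and 991.2.

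To ask which of these RNAs were recovered with CPEB1 beyond the control antibody, CPEB1 IP was compared with IgG. The noncoding RNAs of the Dlk1-Dio3 domain were lower in CPEB1 IP than in IgG, and Mest and Peg3 were higher. Levels below are counts-per-million (CPM) scaled with TMM over all 6 libraries, log2 fold changes come from edgeR's quasi-likelihood test on the 4 libraries of the comparison, and a gene was called at a Benjamini-Hochberg adjusted p under 0.05 over all genes tested. Of the 10 genes 9 passed the filter on low counts, and 2 of these were called higher and 3 lower. Over all 12124 genes tested, 14.7% were called higher and 18.7% lower, with a median log2 fold change of -0.01 against -0.08 for the 9 genes.

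Meg3, a maternally expressed noncoding RNA of the Dlk1-Dio3 domain, had 685.8 and 623.2 CPM in CPEB1 IP and 1326 and 1417 CPM in IgG. Both CPEB1 IP libraries lay below both IgG libraries. The log2 fold change was -1.14 ± 0.09 (SE, n = 2 for each group), with an edgeR adjusted p of 2.4e-08. Rian, the host of a snoRNA cluster, had 101.7 and 111.3 CPM in CPEB1 IP and 208.9 and 214.1 in IgG, again without overlap, and its log2 fold change was -1.05 ± 0.11 (edgeR adjusted p = 1.7e-06). Mirg, which hosts a miRNA cluster, had 53.3 and 53.9 CPM in CPEB1 IP and 110.9 and 93.2 in IgG. Its log2 fold change was -0.99 ± 0.15 (edgeR adjusted p = 6.4e-05). The error ranges of these 3 RNAs, which are read from the same strand of a single domain, overlapped.

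Mest, expressed from the paternal copy, was low in both IgG libraries, at 65.3 and 72.1 CPM, and had 104.2 and 103.2 CPM in CPEB1 IP. Its log2 fold change was 0.53 ± 0.14 (edgeR adjusted p = 0.0075), and the adjusted p rose to 0.072 when CPEB1 IP replicate 2 was left out. Part of its exons overlaps those of Copg2 on the opposite strand, which held 9 to 51 counts in each library. Peg3 had 1522 and 1533 CPM in CPEB1 IP and 1096 and 1130 in IgG. The libraries of the 2 groups did not overlap, and the log2 fold change was 0.39 ± 0.09 (edgeR adjusted p = 0.0022). Mest carries 4 CPE motifs shown in part above, and Peg3 carries none.

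The other 5 genes gave no call under this scaling. Grb10, an adaptor protein that dampens insulin and Igf1 receptor signalling, had 275.0 and 228.9 CPM in CPEB1 IP and 200.5 and 205.4 in IgG. Its groups did not overlap, but its log2 fold change of 0.24 ± 0.11 did not pass (edgeR adjusted p = 0.11). It passed with DESeq2 (0.52, adjusted p = 0.00075), with no filter on low counts (0.63, adjusted p = 0.00027) and on leaving out CPEB1 IP replicate 2 (0.40, adjusted p = 0.042). Plagl1, a zinc finger transcription factor, had 155.8 and 161.0 CPM in CPEB1 IP and 170.1 and 169.7 in IgG (log2 fold change -0.16 ± 0.11, edgeR adjusted p = 0.28). Its groups did not overlap either. An exact permutation test of 2 against 2 libraries cannot go below 0.33, so a lack of overlap alone carries little weight. The share of all genes without overlap was not counted. H19, the maternally expressed noncoding RNA next to Igf2, had 6.67 and 7.84 CPM in CPEB1 IP and 8.35 and 6.56 in IgG, so that its groups overlapped (log2 fold change -0.08 ± 0.45, edgeR adjusted p = 0.91). Dlk1, a transmembrane ligand of the Notch type, had 13.7 and 11.4 CPM in CPEB1 IP and 12.2 and 12.4 in IgG (log2 fold change -0.06 ± 0.37, edgeR adjusted p = 0.93). The sign of H19, Plagl1 and Dlk1 turned to positive with DESeq2, with no filter and with the authors' library totals, and that of H19 and Dlk1 also with a library left out, so no direction is given for them. Igf2 held 8 and 12 counts in CPEB1 IP and 7 and 5 in IgG and was removed by the filter. A difference was not detectable at this depth for H19, Igf2 and Dlk1.

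The size of these changes rests on the scaling between libraries. With the authors' library totals, which count more than the reads on genes, the log2 fold changes of all genes moved up by a median of 0.81. Genes called higher and lower then numbered 7149 and 937 in place of 1779 and 2265, and they numbered 2619 and 984 with DESeq2 and 3513 and 2336 with no filter. On this scale Meg3 stood at -0.33 and was still called lower (adjusted p = 0.00078). Rian stood at -0.24 (adjusted p = 0.085) and Mirg at -0.18 (adjusted p = 0.31), while Mest at 1.33, Peg3 at 1.20, Grb10 at 1.04 and Plagl1 at 0.64 (adjusted p = 3.7e-05) were called higher, so that 4 of the genes were called higher and 1 lower. The order of these 7 genes was the same on both scales, and the point from which higher and lower are read was not.

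**Figure D2:**
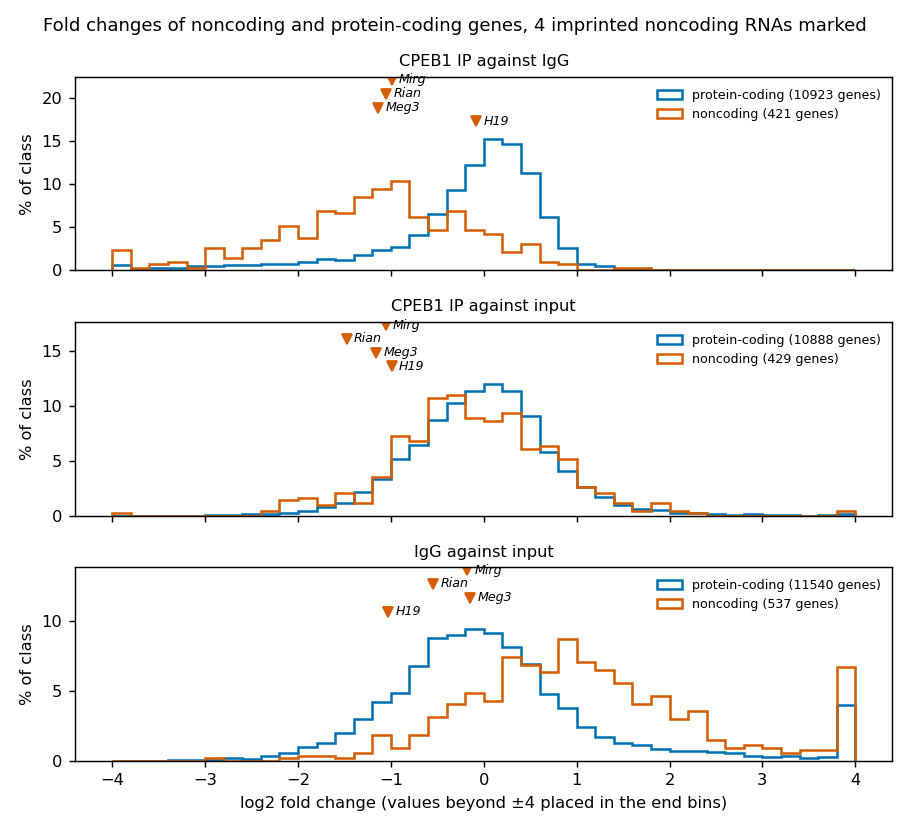
Share of genes of each class (percent, vertical axis) by log2 fold change (horizontal axis) for protein-coding and noncoding genes in the 3 comparisons, with triangles at the log2 fold change of H19, Meg3, Rian and Mirg. The noncoding genes sit left of the protein-coding genes in CPEB1 IP against IgG (median -1.13 against 0.03) and right of them in IgG against input (median 0.93 against -0.04).

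The noncoding genes as a class were low in CPEB1 IP relative to IgG. Of 421 noncoding genes tested 231 (54.9%) were called lower and 8 (1.90%) higher, with a median log2 fold change of -1.13 (-0.32 with the authors' library totals), whereas 15.6% of the 10923 protein-coding genes were called lower and 16.1% higher. The share called lower was 25.3% without CPEB1 IP replicate 1, 22.4% without CPEB1 IP replicate 2, 34.1% without IgG replicate 1 and 33.1% without IgG replicate 2, with medians of -1.09 to -1.03. Meg3 had 49.6% of the noncoding genes below it, Rian 52.3% and Mirg 56.1%, so all 3 stood near the middle of their class. H19 had 86.0% of the class below it. Among protein-coding genes, Mest had 85.9% below it and Peg3 77.5%. Genes without a single count in input took 2.34% and 2.35% of the counts in IgG, and 0.392% and 0.374% in CPEB1 IP. At the density of counts on those genes, 14.3 of the 1746 counts of Meg3 and 25.3 of the 275 counts of Rian in IgG replicate 1 would be expected from such an even spread, and 5.78 of the 146 counts of Mirg. The expected part was larger for the genes with few counts, at 4.54 of 7 for Igf2, 4.48 of 16 for Dlk1 and 1.95 of 11 for H19 in that library. In IgG replicate 2 it was 4.82 of the 5 counts of Igf2.

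To relate the precipitate to the RNA of the cells, CPEB1 IP was compared with input. All 4 noncoding genes, Mest and Grb10 were lower in CPEB1 IP, and Plagl1 was higher. All 10 genes were tested here, and 1 was called higher and 6 lower. Of the 12171 genes tested, 17.0% were called higher and 15.8% lower, and the median log2 fold change was -0.00 over all genes and -0.96 over the 10. The authors' library totals moved the calls over all genes from 2069 and 1921 to 1235 and 2744 and left those of the 10 genes at 1 and 6.

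Rian fell the most, from 310.3 and 306.1 CPM in input to 101.7 and 111.3 in CPEB1 IP, a log2 fold change of -1.48 ± 0.13 (edgeR adjusted p = 1.0e-05). Meg3 went from 2027 and 991.2 CPM to 685.8 and 623.2, and both input libraries were above both CPEB1 IP libraries. Its log2 fold change was -1.16 ± 0.25 (edgeR adjusted p = 0.0031), and it did not pass with DESeq2 (adjusted p = 0.059). With a library left out it ranged from -1.60 without input replicate 2 to -0.57 without input replicate 1. Mirg went from 140.6 and 90.1 CPM to 53.3 and 53.9 (log2 fold change -1.06 ± 0.20, edgeR adjusted p = 0.0017). H19 went from 12.3 and 18.3 CPM to 6.67 and 7.84 (log2 fold change -0.99 ± 0.34, edgeR adjusted p = 0.038), and this call was lost with DESeq2 (adjusted p = 0.16) and with each of 3 libraries left out, CPEB1 IP replicate 1 (0.16), CPEB1 IP replicate 2 (0.095) and input replicate 2 (0.18). The 429 noncoding genes tested had a median log2 fold change of -0.14 (0.10 without input replicate 1), and 10.5% of them were called lower. Rian had 5.59% of that class below it, Meg3 8.62%, Mirg 10.02% and H19 11.4%.

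Of the protein-coding genes, Mest was lower in CPEB1 IP than in input although it was higher than in IgG. It had 193.4 and 239.3 CPM in input against 104.2 and 103.2 in CPEB1 IP (log2 fold change -1.01 ± 0.14, edgeR adjusted p = 0.00023). Grb10 had 380.9 and 353.6 CPM in input against 275.0 and 228.9 in CPEB1 IP (log2 fold change -0.50 ± 0.14, edgeR adjusted p = 0.014), which no longer passed on leaving out CPEB1 IP replicate 1 (adjusted p = 0.069) or CPEB1 IP replicate 2 (0.28). Plagl1 was the only 1 of the 10 called higher. It rose from 91.2 and 94.5 CPM in input to 155.8 and 161.0 in CPEB1 IP, a log2 fold change of 0.82 ± 0.14 (edgeR adjusted p = 0.00067). Peg3 had 1494 and 1243 CPM in input and 1522 and 1533 in CPEB1 IP (log2 fold change 0.21 ± 0.13, edgeR adjusted p = 0.26), and it passed only without input replicate 1 (0.33, adjusted p = 0.0091). Igf2 (log2 fold change -0.93 ± 0.51) and Dlk1 (-0.44 ± 0.29) were not called.

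The control precipitate was compared with input in the same way, since it gives the background of RNA that comes down without the CPEB1 antibody. Of the 10 genes 1 was called higher and 3 lower, against 21.4% higher and 19.4% lower of all 12980 genes tested. With the authors' library totals 0 of the 10 were called higher and 8 lower, while the calls over all genes were 1108 and 7180 in place of 2772 and 2515. Mest was lower in IgG, at 65.3 and 72.1 CPM against 193.4 and 239.3 in input, with a log2 fold change of -1.65 ± 0.18 (edgeR adjusted p = 2.6e-09). Grb10 was lower as well (-0.86 ± 0.15, edgeR adjusted p = 1.7e-05). Rian had -0.54 ± 0.15 (edgeR adjusted p = 0.0038), which no longer passed on leaving out IgG replicate 1 (adjusted p = 0.12) or IgG replicate 2 (0.094). Plagl1 was higher in IgG, at 170.1 and 169.7 CPM against 91.2 and 94.5, with a log2 fold change of 0.87 ± 0.17 (edgeR adjusted p = 8.6e-05), and stood at -0.01 with the authors' library totals (adjusted p = 0.97). The log2 fold changes of Plagl1 over input, 0.82 in CPEB1 IP and 0.87 in IgG, come from comparisons that share the input libraries. With the authors' library totals the value in CPEB1 IP was 0.63 and still called (adjusted p = 0.0074), so the values of the 2 antibodies lay close to each other with TMM and apart on that scale.

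Meg3 and Mirg differed between the 2 input libraries, and their values in IgG against input turned with the input library used. The log2 fold change of Meg3 was -0.15 ± 0.17 (edgeR adjusted p = 0.52), but 0.49 without input replicate 1 (adjusted p = 5.3e-08) and -0.59 without input replicate 2 (adjusted p = 2.1e-13). That of Mirg was -0.18 ± 0.20 (edgeR adjusted p = 0.49), and 0.20 and -0.49 without those libraries (adjusted p = 0.44 and 0.029). Peg3 (-0.30 ± 0.13, edgeR adjusted p = 0.062) and H19 (-1.03 ± 0.46, edgeR adjusted p = 0.067) lay close to the threshold. Peg3 passed in 6 of the 10 alternatives, with DESeq2 (-0.44, adjusted p = 0.0041), no filter (-0.57, adjusted p = 0.0045), all 6 libraries in 1 fit (adjusted p = 0.047), a replicate block (adjusted p = 0.041), the authors' library totals (-1.17, adjusted p = 1.4e-09) and without input replicate 2 (-0.45, adjusted p = 4.1e-07). H19 passed in 2 of them, without input replicate 1 (-1.27, adjusted p = 0.039) and with the authors' library totals (-1.91, adjusted p = 0.00019). Dlk1 (-0.50 ± 0.40) and Igf2 (-0.32 ± 0.60) were not called. Noncoding genes as a class were higher in IgG than in input, with a median log2 fold change of 0.93 over 537 genes (0.07 with the authors' library totals) and 43.8% called higher. Meg3 had 15.1% of these below it, Mirg 14.0%, Rian 7.64% and H19 3.54%.

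**Figure D3:**
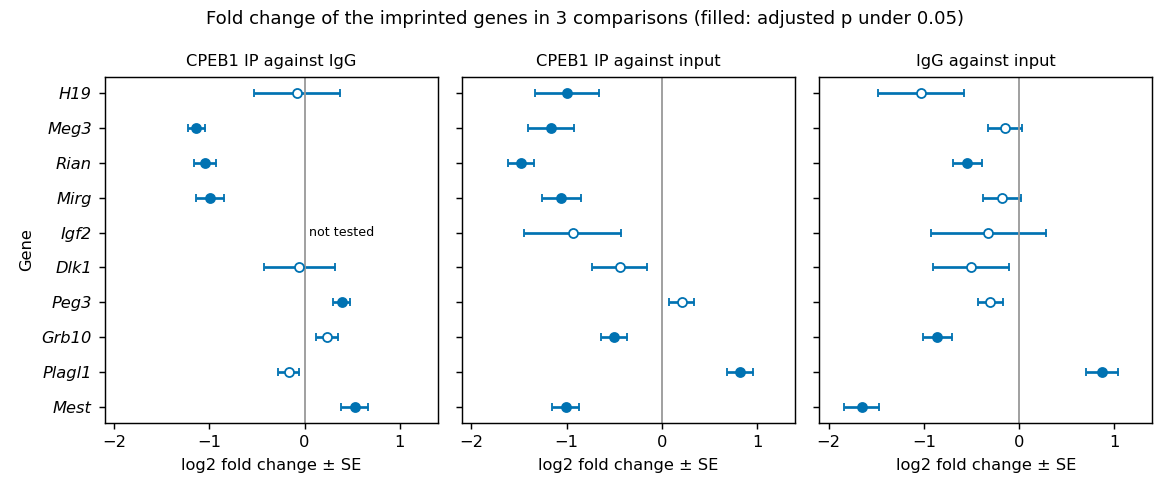
Log2 fold change with its standard error (horizontal axis) of the 10 genes (vertical axis) in the 3 comparisons, filled where the edgeR adjusted p was under 0.05. Meg3, Rian and Mirg are below 0 against both IgG and input, whereas Mest is at 0.53 against IgG and at -1.01 against input; open points of H19, Dlk1 and Plagl1 in the left panel change sign with the scaling.

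The study's own criterion for a CPEB1-associated transcript combined a fold change over 2 in each experiment with a DESeq2 adjusted p under 0.05. Taken as a ratio of CPEB1 IP over IgG after adding 1 to each FPKM, with libraries of the same number taken as an experiment and together with a call as higher by edgeR, it was met by 1464 genes, which is 12.1% of those tested. It was met by 2 of the 10 imprinted genes, Mest with ratios of 2.37 and 2.29 in experiments 1 and 2, and Peg3 with 2.21 and 2.30. Grb10 had 2.09 and 1.83 and fell short in experiment 2. Plagl1 had 1.43 and 1.57, H19 1.17 and 1.55, Dlk1 1.38 and 1.27 and Igf2 1.003 and 1.035. Meg3 (0.840 and 0.767), Rian (0.844 and 0.925) and Mirg (0.808 and 0.998) were the only ones below 1 in both. The median over all genes tested was 1.455 and 1.525, so a ratio of 1 on this scale was below the middle gene. When the FPKM was recomputed with TMM library sizes, the ratios of Mest were 1.496 and 1.348 and those of Peg3 1.324 and 1.291. Both were still called by edgeR, but 0 of the 10 genes then met the criterion, beside 56 of all genes. In all of these values the edgeR call stands in for the study's DESeq2 call. The study's own list of associated transcripts was not searched for the 10 genes.

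**Figure D4:**
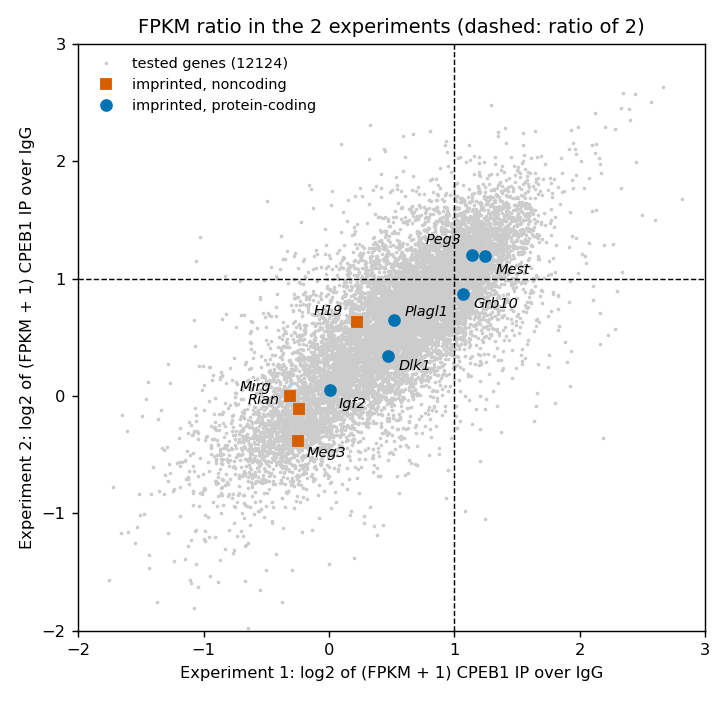
Log2 ratio of CPEB1 IP over IgG, with 1 added to each FPKM, in experiment 1 (horizontal axis) and experiment 2 (vertical axis) for all 12124 genes tested (grey) and the 10 imprinted genes, with dashed lines at a ratio of 2. Mest and Peg3 are past both lines, Grb10 past that of experiment 1 alone, and Meg3, Rian and Mirg are at or below 0 on both axes.

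Within the Dlk1-Dio3 domain on chromosome 12, 116 genes are listed from Dlk1 to Dio3, of which 62 had a count in any library. Dlk1, Meg3, Rian and Mirg together took 86.1% to 91.4% of the counts of the domain in each library. Among the 3 noncoding genes, Meg3 took 80.6% and 82.2% of the counts in IgG, 81.6% and 79.1% in CPEB1 IP, and 81.8% and 71.4% in input, so that its ranges in both precipitates overlapped. Rtl1, a retrotransposon-derived gene of the paternal copy that lies antisense to maternal transcripts, held 100 and 60 counts in input, 21 and 23 in IgG and 29 and 32 in CPEB1 IP. Gm37899 and B830012L14Rik lie between Rian and Mirg on the same strand and were not in the list described here. Gm37899 held 584 and 400 counts in input, more than the 458 and 286 of Mirg. It held 107 and 165 in IgG and 120 and 184 in CPEB1 IP. B830012L14Rik held 272 and 180 in input, 64 and 80 in IgG and 47 and 90 in CPEB1 IP. Few counts fell on the small RNA genes, and 34 of 67 miRNA genes and 8 of 23 snoRNA genes of the domain had a count. Of 14 genes inside Mirg on the same strand, 7 had a count, led by Mir496a with 43, Mir453 with 25 and Mir154 with 23 over all libraries. Mir496a had 17 and 11 counts in input, 3 and 4 in IgG and 6 and 2 in CPEB1 IP. Inside Rian, 2 of 18 such genes had a count, and Mir675, the miRNA inside H19, had none. Mir675, 15 of the 18 genes inside Rian and 9 of the 14 inside Mirg overlap exons of their host, whereas Mir496a, Mir453 and Mir154 do not. How reads shared by 2 genes were counted is not given, so a missing count on such a gene does not measure its RNA. Reads on a miRNA gene in these libraries cannot be told apart from reads on its host transcript.

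The likeness of a pair of genes was measured as the Euclidean distance between their log2 CPM over the 6 libraries, each centred on its mean, so that small values mean the same ups and downs. Among the 10 genes, Meg3 and Mirg were the closest pair (distance 0.41), followed by Dlk1 and Grb10 (0.50) and by Rian and Mirg (0.70). Of 11960 genes with a mean FPKM of at least 1, those closest to Meg3 were Gm17024 (0.26), Mast3 (0.27) and Gm19409 (0.28). Rian was closest to Ikbip (0.23), Mirg to Gtf2ird2 (0.26), H19 to Rhbdd1 (0.20), Peg3 to Tor2a (0.10), Grb10 to Exoc4 (0.12), Plagl1 to Gm16973 (0.14) and Mest to Chrna1 (0.13). The distances describe 6 libraries of 3 groups and carry no test.

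Other imprinted genes were mixed. Of 60 listed, 42 were tested in CPEB1 IP against IgG, with a median log2 fold change of -0.10. Of these, 4 were called higher (9.52%) and 8 lower (19.05%), next to 14.7% and 18.7% of all genes. The other 30 did not pass the threshold. With the authors' library totals 23 were called higher and 4 lower, next to 7149 and 937 of all genes. Those higher were Tssc4 (0.74 ± 0.24), Blcap (0.61 ± 0.19), Calcr (0.36 ± 0.12), the calcitonin receptor that marks quiescent satellite cells, and Dcn (0.36 ± 0.10), which encodes the matrix proteoglycan decorin. The lowest were Rasgrf1 (-2.64 ± 0.50), Sfmbt2 (-2.50 ± 0.51), Kcnk9 (-1.78 ± 0.54) and the noncoding Snhg14 (-1.61 ± 0.28), the Ube3a antisense host of snoRNAs. Kcnq1ot1 (-1.38 ± 0.09) and Airn (-0.92 ± 0.12), the long noncoding RNAs of the Kcnq1 and Igf2r clusters, were also called lower, although Airn was not with the authors' library totals (-0.11), and both were chosen for mention after their values were seen. Rasgrf1, Sfmbt2 and Kcnk9 were near the limit of detection, with a mean of at most 0.424 FPKM in any group. Of the 8 genes named by rule only Snhg14 was called in every one of the 10 alternatives. The count of 12 calls fell to 6 without CPEB1 IP replicate 1 and without CPEB1 IP replicate 2, and to 7 without IgG replicate 2.

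**Figure D5:**
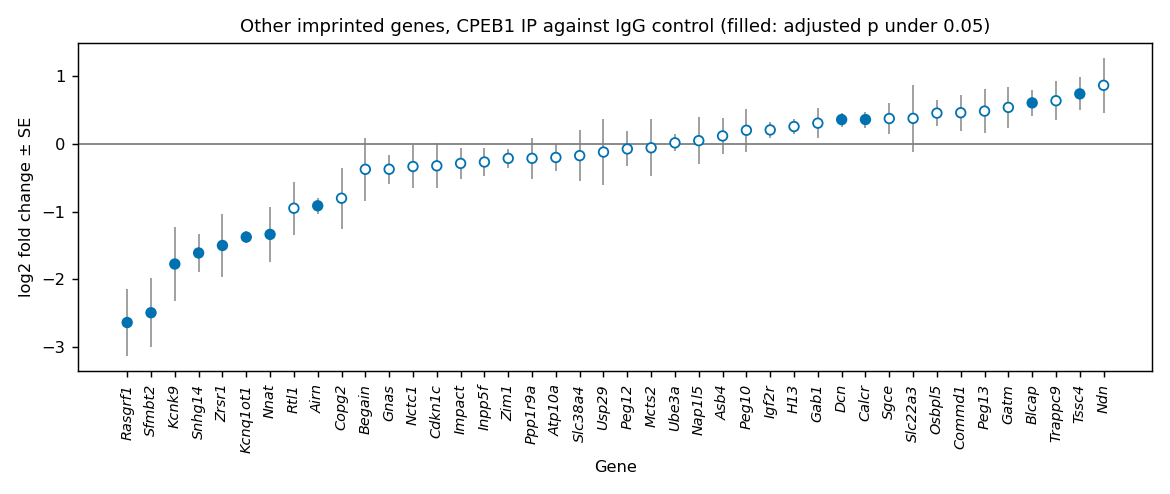
Log2 fold change with its standard error (vertical axis) of the 42 other imprinted genes tested in CPEB1 IP against IgG, ordered along the horizontal axis and filled where the edgeR adjusted p was under 0.05. Filled points number 8 below 0 and 4 above it, and 30 genes are open. Over all 12124 genes tested, 18.7% were called lower and 14.7% higher.

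Against input, 6 of 40 other imprinted genes tested were called higher in CPEB1 IP and 13 lower, with a median log2 fold change of -0.35, next to 17.0% and 15.8% of all genes, and 2 higher and 15 lower with the authors' library totals. Dcn (1.97 ± 0.14), Snhg14 (1.47 ± 0.37), Peg10 (0.85 ± 0.27) and Ube3a (0.69 ± 0.18), a ubiquitin ligase, were the highest. Calcr (-1.57 ± 0.14), Nctc1 (-1.55 ± 0.23), a noncoding RNA downstream of H19, Rtl1 (-1.44 ± 0.35) and the amino acid transporter Slc38a4 (-1.21 ± 0.26) were the lowest. Dcn, Calcr, Nctc1 and Slc38a4 were called in all 10 alternatives. The 19 calls fell to 10 without CPEB1 IP replicate 1 and to 9 without CPEB1 IP replicate 2. In IgG against input, 7 of 43 were called higher and 13 lower, next to 21.4% and 19.4% of all genes. With the authors' library totals these were 6 and 28, next to 1108 and 7180 of all genes. With TMM, Dcn (1.49 ± 0.17), Snhg14 (2.95 ± 0.39) and Ube3a (0.55 ± 0.20) were called higher in IgG than in input too. Calcr (-2.05 ± 0.16), Nctc1 (-1.33 ± 0.29) and Slc38a4 (-1.15 ± 0.36) were called lower there too. Peg10 (0.53 ± 0.40) and Rtl1 (-0.61 ± 0.36) were not called in IgG against input.

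Grb10 and Igf2 belong to the Igf pathway, in which Igf ligands are held by binding proteins and signal through a receptor tyrosine kinase, Irs adaptors, phosphoinositide 3-kinase and Akt. Of 27 further genes of the pathway 23 were tested in CPEB1 IP against IgG, and 7 were called higher and 6 lower, next to 14.7% and 18.7% of all genes, with a median log2 fold change of 0.11. With the authors' library totals 17 were called higher and 0 lower, next to 7149 and 937 of all 12124 genes tested. The highest were the binding proteins Igfbp5 (0.80 ± 0.10) and Igfbp6 (0.71 ± 0.15), the kinase Akt2 (0.59 ± 0.10) and the adaptor Irs2 (0.54 ± 0.11), and these were called in all 10 alternatives. The lowest were the RNA-binding protein Igf2bp3 (-1.68 ± 0.41), the adaptor Irs1 (-1.42 ± 0.46), the insulin receptor Insr (-0.82 ± 0.31) and the kinase subunit Pik3r1 (-0.73 ± 0.21), each of which lost its call in at least 4 alternatives, and Pik3r1 stood at 0.08 with the authors' library totals. The 13 calls fell to 4, all of them higher, without CPEB1 IP replicate 2, and to 8 without IgG replicate 1.

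Against input, 5 genes of the pathway were called higher in CPEB1 IP and 7 lower of 23 tested, next to 17.0% and 15.8% of all genes. Igfbp6 (2.92 ± 0.23), the adaptor Grb2 (0.96 ± 0.15), Akt1 (0.66 ± 0.15) and Igf2bp2 (0.65 ± 0.15) were the highest, and Irs1 (-1.68 ± 0.35), the ligand Igf1 (-1.42 ± 0.19), Igfbp5 (-1.07 ± 0.13) and the kinase Gsk3b (-0.92 ± 0.17) the lowest. Igfbp5 was thus higher than in IgG and lower than in input, as was Mest. Akt1 and Igf2bp2 lost their call without CPEB1 IP replicate 2, and Akt1 also with the authors' library totals, and the other 6 genes were called in all 10 alternatives. In IgG against input, 3 of 23 were called higher and 8 lower, next to the same 21.4% and 19.4%, and with the authors' library totals 1 and 17.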

How the data were processed

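RIP-seq of fiSCs gave 2 libraries each of CPEB1 IP, IgG and input, and groups were taken from the sample labels. The authors mapped reads to mm10 with HISAT and made the deposited raw counts with featureCounts, without normalization. The authors' FPKM divides the count by gene length and by a library total above the counts on genes. The annotation release, the strand setting and the treatment of multimapping reads are not given in the sources used here, so reads of overlapping antisense genes cannot be told apart. Libraries were amplified with SMART-seq2.

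The count test was run with edgeR 4.0.16 in R 4.3.3 (filterByExpr, TMM, quasi-likelihood test, 2 groups at a time, Benjamini-Hochberg adjustment at 0.05). The standard error was obtained as the absolute log2 fold change over the root of F. The study describes the 2 libraries of a group as biological replicates, without saying how many mice gave each, so p-values measure the spread between these libraries, and an exact permutation test of 2 against 2 libraries cannot go below 0.33. Tested on simulated counts, 58 of 100 genes changed by a log2 fold of 1 and 90 of 100 changed by 2 were recovered in CPEB1 IP against IgG (12124 genes), with 8 unchanged genes called. In CPEB1 IP against input 59 and 93 were recovered with 20 unchanged genes called, and in IgG against input 40 and 76 with 2. The simulation changed few genes, as many up as down, so it does not measure the effect of the scaling between libraries.

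FPKM ratios used a pseudocount of 1. Of 55376 genes 54509 were matched by symbol and chromosome to GENCODE M21 on GRCm38, which gave transcripts and 3′ UTRs, and CPE motifs were taken from the study's list. Noncoding genes are those annotated as lincRNA, processed transcript, antisense, sense intronic, sense overlapping or bidirectional promoter lncRNA. Alternatives were DESeq2 1.42.0, RLE size factors, no filter, a replicate block, all 6 libraries in 1 fit, leaving out each library, pseudocounts of 0.1 and 5, TMM library sizes for FPKM, single experiments and other CPE rules. The authors' library totals were added after the data were examined. The genes and lists were chosen with earlier results of these data known. Named from the lists were up to 4 genes called in each direction with the largest log2 fold change in CPEB1 IP against IgG and against input. Also named were genes inside the 10 genes with the highest counts, and the closest genes by Euclidean distance of log2 CPM (prior count 2) for genes with at least 20 counts in each library, and for H19. Figures used Python 3.11.15 with matplotlib 3.10.9.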

Additional observations from a re-analysis of the deposited data

How the results depend on the processing

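In CPEB1 IP against IgG, Meg3 and Peg3 were called in the same direction in all 10 alternatives. Rian, Mirg and Mest kept their sign in all 10 and their call in 9, which Rian (-0.24, adjusted p = 0.085) and Mirg (-0.18, adjusted p = 0.31) lost with the authors' library totals and Mest without CPEB1 IP replicate 2 (adjusted p = 0.072). Plagl1 was called higher with the authors' library totals alone. With DESeq2, H19 stood at 0.19, Dlk1 at 0.24 and Plagl1 at 0.12 in that comparison, with no filter at 0.32, 0.35 and 0.23, with the authors' library totals at 0.72, 0.75 and 0.64, and Dlk1 at 0.011 with all 6 libraries in 1 fit. The authors' library totals gave 8086 calls over all genes and 27 of other imprinted genes in CPEB1 IP against IgG, and in IgG against input 8288, 8 of the 10 genes, 34 and 18 of the Igf pathway, with Plagl1 at -0.0085. DESeq2 gave 2420 calls over all genes in CPEB1 IP against input and 2790 in IgG against input. With no filter, 5849 genes were called in CPEB1 IP against IgG.

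With 1 library left out, calls in CPEB1 IP against IgG ran from 1731 to 3533 over all genes, 6 to 13 of other imprinted genes and 4 to 10 of the Igf pathway, with H19 from -0.20 to 0.16 and Dlk1 from -0.14 to 0.12. In CPEB1 IP against input they ran from 2043 to 4993 and, for other imprinted genes, 9 to 19. In IgG against input they ran from 3064 to 4570, and from 3 to 7 of the 10 genes, 12 to 21 and 6 to 13 of the Igf pathway, with Meg3 from -0.59 to 0.49 and Mirg from -0.49 to 0.20. A group left with 1 library was assumed to vary like the others. The cause of these changes was not tested.

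The deviations of same-numbered libraries had correlations of -0.01, -0.02 and 0.03 over 19317 genes. The study set each CPEB1 IP against the IgG of its experiment, but no label says that a number marks a shared experiment and same-numbered libraries did not deviate together, so the block stayed an alternative. With a replicate block 3970 genes were called in CPEB1 IP against IgG, 3741 in CPEB1 IP against input and 5458 in IgG against input, and 5, 7 and 5 of the 10 genes; Peg3 was the 1 gained, in IgG against input (-0.29, adjusted p = 0.041). The FPKM criterion was met by 1 of the 10 genes with a pseudocount of 5 and 0 with TMM library sizes, and 2 of the 6 coding genes held a CPE when only TTTTAT and TTTTAAT counted. Depth limits H19, Igf2 and Dlk1, which had at most 62 counts in any library.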
